A study of Homo sapiens with 12 samples.

Results

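The genes of cholesterol and fatty acid synthesis were followed in the human oesophageal cancer line TE-1, in which the interferon-induced gene IFI6 was raised with an overexpression vector or lowered with an interference vector. The gene set held 36 of the 19771 protein-coding genes of the deposited gene table, matched by symbol. It comprised 7 enzymes of the mevalonate pathway, 11 enzymes from squalene to cholesterol, 5 regulators of the SREBP pathway, 9 enzymes of fatty acid and lipid synthesis and 4 genes of sterol transport and efflux. Total RNA was sequenced from 12 libraries, 3 in each of 4 groups: OE_IFI6, transfected with the IFI6 overexpression vector; OE_control, its control vector; sh_IFI6, the vector that interferes with IFI6; and sh_control, the control of that vector. All 4 groups were TE-1 cells kept in DMEM with 10% fetal bovine serum and sequenced after 48 h of culture, so all had been transfected and none was an untransfected reference. The promoter of the overexpression vector, the hairpin sequence, the content of the control vectors and any selection of transfected cells are not given in the labels. Nor is it stated that the libraries of 1 group are separate cultures, and the spread behind every p-value below may therefore be technical.

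Cholesterol is built from acetyl-CoA through mevalonate, isoprenoid diphosphates, squalene and lanosterol. When sterols in the membrane of the endoplasmic reticulum run low, SCAP carries the SREBP proteins to the Golgi, where they are cut, and the freed fragment enters the nucleus and raises transcription of most enzymes of the pathway. When sterols are plentiful, INSIG proteins hold the SCAP and SREBP complex back. Acetyl-CoA is also the building block of fatty acids, whose genes are among the targets of SREBF1. Serum supplies cultured cells with lipoprotein cholesterol.

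IFI6 itself was measured first, as a check of the labels. It had 309, 268 and 358 FPKM in OE_IFI6 libraries, against 27.3, 17.9 and 28.8 FPKM in OE_control libraries. It had 15.1, 13.9 and 14.7 FPKM in sh_IFI6 libraries, against 24.9, 24.1 and 21.2 FPKM in sh_control libraries. FPKM are fragment numbers that the authors scaled to transcript length and to the size of the library. The groups did not overlap in either pair, and the exact permutation p was 0.1 for each, the smallest that 3 against 3 libraries can give. The mean in sh_IFI6 libraries was 62.3% of that in sh_control libraries, so the interference left most of the IFI6 RNA in place.

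OE_control was the group that stood apart. Its 3 libraries lay at 22.2 to 30.6 on the first principal component of all tested genes (23.1% of the variance), and the remaining 9 libraries between -11.4 and -5.89. A comparison of OE_IFI6 with sh_control, which leaves those libraries out, is therefore given after the results that rest on OE_control. Summed FPKM was 325877 to 357145 per library, and 10650 to 10987 genes reached 1 FPKM. Read counts were not used here, so the depth is unknown. The step fitted to low values differed between libraries by a factor of up to 1.28. Most low values did not lie near a multiple of that step, so this factor does not establish the depth. Of 12 markers of squamous epithelium, KRT8, KRT18, PERP and DSP reached a mean of 1 FPKM, while KRT5, KRT6A, SOX2 and EPCAM were listed at 0 in every library and KRT14, TP63, CDH1 and KRT19 stayed under 1 FPKM. The marker values therefore go against a squamous identity, and the cells are called TE-1 as labelled. Defining genes of hepatocytes and adipocytes, cells rich in lipid synthesis, were at or near 0, with 0 of 5 reaching 1 FPKM and ALB, APOB and TTR listed at 0 throughout.

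The letters before the start of the genes are shown because SREBPs bind DNA weakly alone and act together with the CCAAT-binding factor NF-Y or with Sp1. The RefSeq promoter table (GRCh38.p14) held 32 of the 36 genes. FDFT1, SQLE, ACAT2 and FASN had no entry. Each line below gives the 200 bases before a RefSeq start of the gene, the one nearest its deposited 5′ end, on the gene's strand, 5′ to 3′, with CCAAT (or ATTGG, the same letters on the other strand) and TCACNCCAC in capitals. The first 5 genes are among those that fell in OE_IFI6 against OE_control. ACSS2 fell too but is not shown, since its RefSeq window lay well inside the deposited bounds of the gene. SREBF2 is shown as the gene with a match to the classical sterol regulatory element.
HMGCS1, chr5:43313413-43313612, minus strand: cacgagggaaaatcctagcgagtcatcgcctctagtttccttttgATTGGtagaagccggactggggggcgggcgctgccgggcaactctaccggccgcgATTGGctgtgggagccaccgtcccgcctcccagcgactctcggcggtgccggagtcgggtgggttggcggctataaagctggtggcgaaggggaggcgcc
MVD, chr16:88663092-88663291, minus strand: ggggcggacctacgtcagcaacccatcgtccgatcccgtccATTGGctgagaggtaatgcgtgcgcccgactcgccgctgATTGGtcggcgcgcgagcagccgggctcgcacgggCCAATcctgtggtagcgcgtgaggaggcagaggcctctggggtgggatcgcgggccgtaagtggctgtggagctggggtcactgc
IDI1, chr10:1049120-1049319, minus strand: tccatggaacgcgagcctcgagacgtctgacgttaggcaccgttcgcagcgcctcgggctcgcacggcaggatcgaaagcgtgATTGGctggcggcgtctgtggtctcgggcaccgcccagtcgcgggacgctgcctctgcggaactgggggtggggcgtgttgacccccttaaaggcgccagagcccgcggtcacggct
MSMO1, chr4:165327469-165327668, plus strand: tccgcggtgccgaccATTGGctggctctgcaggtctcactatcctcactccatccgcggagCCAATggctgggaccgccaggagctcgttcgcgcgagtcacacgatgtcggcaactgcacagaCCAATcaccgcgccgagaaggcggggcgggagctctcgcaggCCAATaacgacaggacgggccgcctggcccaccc
HSD17B7, chr1:162790502-162790701, plus strand: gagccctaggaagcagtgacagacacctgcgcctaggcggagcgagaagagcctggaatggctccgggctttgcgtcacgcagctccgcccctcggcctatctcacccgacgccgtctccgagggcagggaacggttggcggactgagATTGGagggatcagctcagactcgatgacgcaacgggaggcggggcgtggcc
SREBF2, chr22:41832905-41833104, plus strand: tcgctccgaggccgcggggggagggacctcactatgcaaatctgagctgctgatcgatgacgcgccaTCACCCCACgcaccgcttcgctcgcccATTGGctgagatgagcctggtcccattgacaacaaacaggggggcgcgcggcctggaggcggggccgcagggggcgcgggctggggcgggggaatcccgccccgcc
The 5 genes that fell all held CCAAT in the bases shown. Over the 250 bases before the start, on both strands, CCAAT lay in 19 of the 32 windows (59.4%), against 32.0% of all 35116 windows in the table and 33.3% of the windows of tested genes. The classical element TCACNCCAC lay in 1 of the 32 (3.12%), SREBF2, against 0.883% of all windows and 0.885% of those of tested genes. The Sp1 letters GGGCGG lay in 28 of the 32 (87.5%), against 42.6% of all windows and 64.9% of those of tested genes. CACGTG lay in 4 of the 32 (12.5%), against 6.34% of all windows and 8.55% of those of tested genes. CACCCCAC, which overlaps the classical element, lay in SREBF2 and ABCA1 (6.25%, against 2.43% of all windows and 2.18% of those of tested genes). The 32 windows include that of ACSS2 and others inside the deposited bounds of their genes, among them ACLY, INSIG1, DHCR7, FADS1 and FADS2. Of these, ACSS2, ACLY and INSIG1 are among the 19 with CCAAT. Each of the 32 genes has 1 window, whereas the shares compared with count every window of a gene (12765 windows for 8682 tested symbols). Matches are letters only, and the absence of a match says only that the letters are not in the window.

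With IFI6 overexpressed, RNA of some enzymes of cholesterol synthesis was lower than with the control vector. In OE_IFI6 against OE_control, 8 of the 35 genes that reached a mean of 1 FPKM fell and 0 rose (limma on log2(FPKM + 1), Benjamini-Hochberg adjusted p under 0.05 over 10925 genes). Among all genes tested, 3.56% fell and 4.10% rose. The 8 were HMGCS1, MVD and IDI1 of the mevalonate pathway, FDFT1, SQLE, MSMO1 and HSD17B7 of the squalene and sterol steps, and ACSS2, which makes acetyl-CoA. The median log2 fold change of the 35 genes was -0.19, beside 0.05 for all genes tested. A negative value was found in 29 of the 35, beside 43.4% of all genes tested. In bulk RNA, a lower level in every cell and fewer cells with a high level cannot be told apart.

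**Figure D1:**
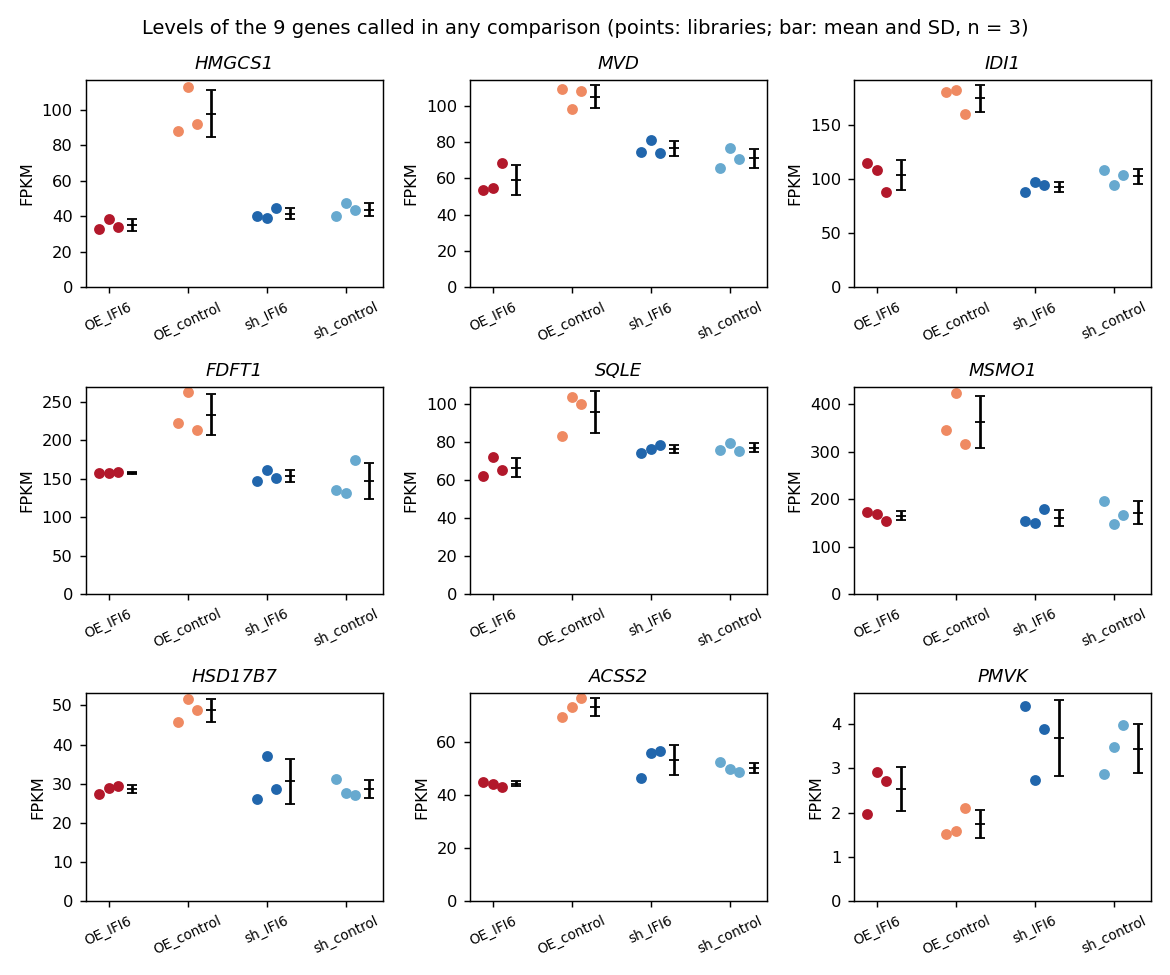
FPKM in each library (points) with the group mean and SD (bar, n = 3) for the 9 genes that passed the threshold in any comparison; groups run OE_IFI6, OE_control, sh_IFI6, sh_control along each axis. In the first 8 panels the OE_control libraries are the highest and the other 3 groups lie close together, as in HMGCS1 with 33.0 to 38.8 FPKM in OE_IFI6 and 88.1 to 113 FPKM in OE_control; PMVK is lowest in OE_control.

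HMGCS1 makes HMG-CoA, the precursor of mevalonate, and had the largest fall of the 35 genes tested. The gene lies at chr5:43201377-43313512 on the minus strand, in coordinates of the deposited table, which overlap those of GENCODE for the GRCh38 assembly. It had 33.0, 38.8 and 33.9 FPKM in OE_IFI6 libraries, against 88.1, 113 and 92.3 FPKM in OE_control libraries. It had 40.4, 39.0 and 44.9 FPKM in sh_IFI6 libraries, against 40.5, 47.6 and 43.5 FPKM in sh_control libraries. Only the OE_control libraries were high, and the OE_IFI6 libraries were the lowest, with no overlap with any other group. The log2 fold change of OE_IFI6 against OE_control was -1.44 (SE 0.121, limma adjusted p = 5.3e-05), a ratio of mean FPKM of 0.36.

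MVD, at chr16:88651935-88663161, turns mevalonate diphosphate into isopentenyl diphosphate. It had 53.6, 54.6 and 68.5 FPKM in OE_IFI6 libraries, against 109, 98.0 and 108 FPKM in OE_control libraries. In the interference arm it had 74.4, 81.3 and 73.9 FPKM in sh_IFI6 libraries, against 65.8, 76.6 and 70.5 FPKM in sh_control libraries. OE_IFI6 and OE_control did not overlap, and MVD fell by 0.83 on the log2 scale (SE 0.114, limma adjusted p = 0.0014).

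IDI1, at chr10:1039152-1049170, converts isopentenyl diphosphate into its reactive isomer. It had 115, 109 and 88.7 FPKM in OE_IFI6 libraries, against 181, 183 and 161 FPKM in OE_control libraries. It had 88.2, 97.3 and 94.5 FPKM in sh_IFI6 libraries, against 109, 94.8 and 104 FPKM in sh_control libraries. All OE_IFI6 libraries were below all OE_control libraries, and IDI1 fell by 0.74 against OE_control (log2, SE 0.115, limma adjusted p = 0.0025). In a fit of the 6 overexpression libraries alone, the adjusted p of IDI1 was 0.052.

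The other 4 genes of the mevalonate pathway did not pass the threshold. PMVK, the second kinase of mevalonate, averaged 2.53 ± 0.504 FPKM in OE_IFI6 and 1.74 ± 0.326 FPKM in OE_control (SD, n = 3 each), with a positive log2 fold change of 0.36 (limma adjusted p = 0.22). MVK, the first kinase, averaged 21.5 ± 0.26 and 24.9 ± 4.13 FPKM in OE_IFI6 and OE_control. A gene value sums all transcripts, and the protein-coding ones of MVK went the other way, with 16.2 ± 3.34 and 12.5 ± 1.67 FPKM. FDPS, which joins isoprenoid units into farnesyl diphosphate, averaged 64.9 ± 6.94 and 86.1 ± 17.5 FPKM in OE_IFI6 and OE_control. ACAT2, which makes acetoacetyl-CoA in the cytosol, averaged 26.5 ± 4.34 and 32.3 ± 5.92 FPKM in OE_IFI6 and OE_control. In each of these 4 genes the libraries of OE_IFI6 and OE_control overlapped. On the opposite strand, ACAT2 overlaps TCP1 and MVK overlaps MMAB, which averaged 118 and 18.4 FPKM over the 12 libraries. Whether strand was used is not known, so the values of ACAT2 and MVK are uncertain. Summed over the 7 enzymes, the mevalonate pathway had 314 ± 8.48 FPKM in OE_IFI6, against 523 ± 23.1 FPKM in OE_control, and 351 ± 13.4 FPKM in sh_IFI6, against 355 ± 24.2 FPKM in sh_control (SD, n = 3 each).

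MSMO1 removes methyl groups from sterol intermediates and had the highest FPKM of the 8 genes. It lies at chr4:165327667-165343164. It had 173, 168 and 155 FPKM in OE_IFI6 libraries, against 346, 423 and 317 FPKM in OE_control libraries. It had 153, 149 and 179 FPKM in sh_IFI6 libraries, against 196, 148 and 167 FPKM in sh_control libraries. Every OE_control library was above the other 9, and MSMO1 fell by 1.12 on the log2 scale (SE 0.136, limma adjusted p = 0.00061).

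HSD17B7 reduces a keto group at the same stage of demethylation, and lies at chr1:162790702-162812817. It had 27.4, 28.9 and 29.4 FPKM in OE_IFI6 libraries, against 45.8, 51.7 and 48.9 FPKM in OE_control libraries. It had 26.1, 37.0 and 28.7 FPKM in sh_IFI6 libraries, against 31.3, 27.7 and 27.1 FPKM in sh_control libraries. OE_IFI6 lay within the range of the interference arm and wholly below OE_control, with a log2 fold change of -0.75 (SE 0.127, limma adjusted p = 0.0048). The pseudogenes HSD17B7P1 and HSD17B7P2 were listed at means of 0 and 0.111 FPKM, and the split of reads among such near-identical copies is not known.

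FDFT1, squalene synthase, joins a pair of farnesyl diphosphate molecules in the first step given over to sterols. It had 158, 157 and 159 FPKM in OE_IFI6 libraries, against 223, 263 and 213 FPKM in OE_control libraries. It had 147, 162 and 151 FPKM in sh_IFI6 libraries, against 136, 132 and 174 FPKM in sh_control libraries. The overexpression groups did not overlap, and FDFT1 fell by 0.55 on the log2 scale (SE 0.12, limma adjusted p = 0.017). The adjusted p was 0.053 without the second OE_IFI6 library and 0.098 in a fit of the 6 overexpression libraries alone.

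SQLE adds the oxygen to squalene and is a rate-limiting enzyme of the later pathway. It had 62.1, 72.1 and 65.6 FPKM in OE_IFI6 libraries, against 83.3, 104 and 100 FPKM in OE_control libraries. It had 74.5, 76.5 and 78.3 FPKM in sh_IFI6 libraries, against 75.8, 79.8 and 75.6 FPKM in sh_control libraries. OE_IFI6 was lowest and OE_control highest, without overlap, and SQLE fell by 0.51 (log2, SE 0.104, limma adjusted p = 0.012). In the fit of 6 libraries the adjusted p was 0.14.

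The 7 other enzymes from squalene to cholesterol did not pass the threshold in OE_IFI6 against OE_control, with log2 fold changes from -0.31 in DHCR7 to 0.07 in CYP51A1. CYP51A1, which demethylates lanosterol, averaged 103 ± 2.38 FPKM in OE_IFI6 and 98.7 ± 9.25 FPKM in OE_control. LSS, which closes the sterol rings, averaged 21.7 ± 2.65 FPKM in OE_IFI6 and 24.1 ± 1.44 FPKM in OE_control. DHCR7, the last reductase of the pathway, had 15.8, 20.8 and 20.9 FPKM in OE_IFI6 libraries, against 23.1, 22.7 and 25.8 FPKM in OE_control libraries, without overlap (limma adjusted p = 0.27). The sterol isomerase EBP varied more within groups than between them, with 76.7, 165 and 219 FPKM in OE_IFI6 libraries, against 340, 121 and 109 FPKM in OE_control libraries. NSDHL, SC5D and TM7SF2, which serve other steps between lanosterol and cholesterol, averaged 5.66, 6.97 and 1.23 FPKM in OE_IFI6 and 6.26, 7.32 and 1.39 FPKM in OE_control. TM7SF2 overlaps VPS51, which averaged 19.7 FPKM over the 12 libraries on the same strand, so the value of TM7SF2 is uncertain. Summed over the 11 enzymes, the level was 730 ± 71.5 FPKM in OE_IFI6, against 1090 ± 130 FPKM in OE_control, and 826 ± 48.1 FPKM in sh_IFI6, against 763 ± 61.8 FPKM in sh_control (SD, n = 3 each).

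None of the 5 regulators passed the threshold in any of the 5 comparisons made. SREBF2, the SREBP that mainly drives cholesterol synthesis, averaged 68.2 ± 7.93 FPKM in OE_IFI6 and 72.1 ± 2.96 FPKM in OE_control (log2 fold change -0.08, SE 0.103). SREBF1, which mainly drives fatty acid synthesis, averaged 32.5 ± 1.73 FPKM in OE_IFI6 and 27.5 ± 3.84 FPKM in OE_control, with a log2 fold change of 0.24 (SE 0.117, limma adjusted p = 0.25). It overlaps RAI1 on the opposite strand, which averaged 9.14 FPKM, so the value of SREBF1 is uncertain. SCAP averaged 40.8 ± 5.76 FPKM in OE_IFI6 and 41.3 ± 3.64 FPKM in OE_control. Protein-coding transcripts held 13.1% ± 0.776 of the SCAP FPKM in OE_IFI6 and 13.7% ± 0.949 in OE_control. For SREBF1 they held 23.3% ± 11.8 and 16.2% ± 9.08, so most of the FPKM of both genes lay outside coding transcripts. INSIG1, itself a known SREBP target, varied widely within groups, with 73.6, 201 and 191 FPKM in OE_IFI6 libraries, against 133, 382 and 191 FPKM in OE_control libraries (log2 fold change -0.59, SE 0.484). INSIG2 had 10.1, 11.4 and 8.09 FPKM in OE_IFI6 libraries, against 12.2, 11.9 and 12.5 FPKM in OE_control libraries, without overlap but with a limma adjusted p of 0.2. Its protein-coding transcripts alone summed to 5.61 ± 0.559 FPKM in OE_IFI6 and 11.2 ± 0.804 FPKM in OE_control. In sh_IFI6 and sh_control they summed to 8.23 ± 0.926 and 8.67 ± 0.3 FPKM (SD, n = 3 each). The difference between these sums was not tested. These are RNA levels, and the cutting of the SREBP proteins was not measured.

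ACSS2 was the gene of fatty acid and lipid synthesis that fell, 1 of 9. It makes acetyl-CoA from acetate, a precursor of sterols as well as of fatty acids, and lies at chr20:34872146-34927962. It had 45.1, 44.2 and 43.2 FPKM in OE_IFI6 libraries, against 69.6, 73.4 and 76.6 FPKM in OE_control libraries. It had 46.5, 55.8 and 56.8 FPKM in sh_IFI6 libraries, against 52.4, 49.9 and 48.6 FPKM in sh_control libraries. OE_IFI6 was below every library of the other 3 groups, and the log2 fold change against OE_control was -0.71 (SE 0.0993, limma adjusted p = 0.0015).

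The core of fatty acid synthesis gave values near 0 on the log2 scale. FASN, which builds palmitate, averaged 161 ± 22.9 FPKM in OE_IFI6 and 173 ± 20.0 FPKM in OE_control (SD, n = 3 each; log2 fold change -0.11, SE 0.118). ACLY, which makes cytosolic acetyl-CoA from citrate, and ACACA, which makes malonyl-CoA, had log2 fold changes of -0.01 and -0.14. SCD, the desaturase that introduces the first double bond, was the highest of all 36 genes, with 572, 585 and 632 FPKM in OE_IFI6 libraries, against 637, 736 and 672 FPKM in OE_control libraries. The SCD libraries did not overlap, but the limma adjusted p was 0.24. ELOVL6, which lengthens palmitate, had 6.42, 8.53 and 7.08 FPKM in OE_IFI6 libraries, against 13.1, 9.87 and 9.01 FPKM in OE_control libraries. It had the lowest adjusted p of the genes that did not pass, 0.07 by limma, with a log2 fold change of -0.48. FADS1, FADS2 and LPIN1, of which the first 2 desaturate polyunsaturated fatty acids and the last makes diacylglycerol, had log2 fold changes of -0.05, 0.11 and 0.01. Summed over the 9 genes the level was 983 ± 26.3 FPKM in OE_IFI6, against 1120 ± 86.1 FPKM in OE_control, and 1110 ± 64.8 FPKM in sh_IFI6, against 1120 ± 13.5 FPKM in sh_control (SD, n = 3 each).

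None of the 3 tested genes of sterol transport passed the threshold in OE_IFI6 against OE_control. STARD4, a carrier of cholesterol between membranes, averaged 20.9 ± 1.92 FPKM in OE_IFI6 and 30.0 ± 11.4 FPKM in OE_control. NPC1, which releases cholesterol from lysosomes, averaged 22.5 ± 1.89 FPKM in OE_IFI6 and 31.1 ± 10.8 FPKM in OE_control. It overlaps RMC1 on the opposite strand, which averaged 12.2 FPKM over the 12 libraries, so the value of NPC1 is uncertain. In OE_control, STARD4 had 1 high library, the second, at 42.8 FPKM. NPC1 had 2, the second at 41.4 FPKM and the third at 32.2 FPKM, both above all 9 libraries of the other groups. MYLIP, a ubiquitin ligase that marks lipoprotein receptors for degradation, averaged 1.45 ± 0.32 FPKM in OE_IFI6 and 1.15 ± 0.404 FPKM in OE_control. ABCA1, which exports cholesterol and rises when sterols are plentiful, was the gene that did not reach the filter and was not tested. It averaged 0.14 ± 0.0485 FPKM in OE_IFI6, 0.0818 ± 0.0316 FPKM in OE_control, 0.106 ± 0.0273 FPKM in sh_IFI6 and 0.131 ± 0.00556 FPKM in sh_control.

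**Figure D2:**
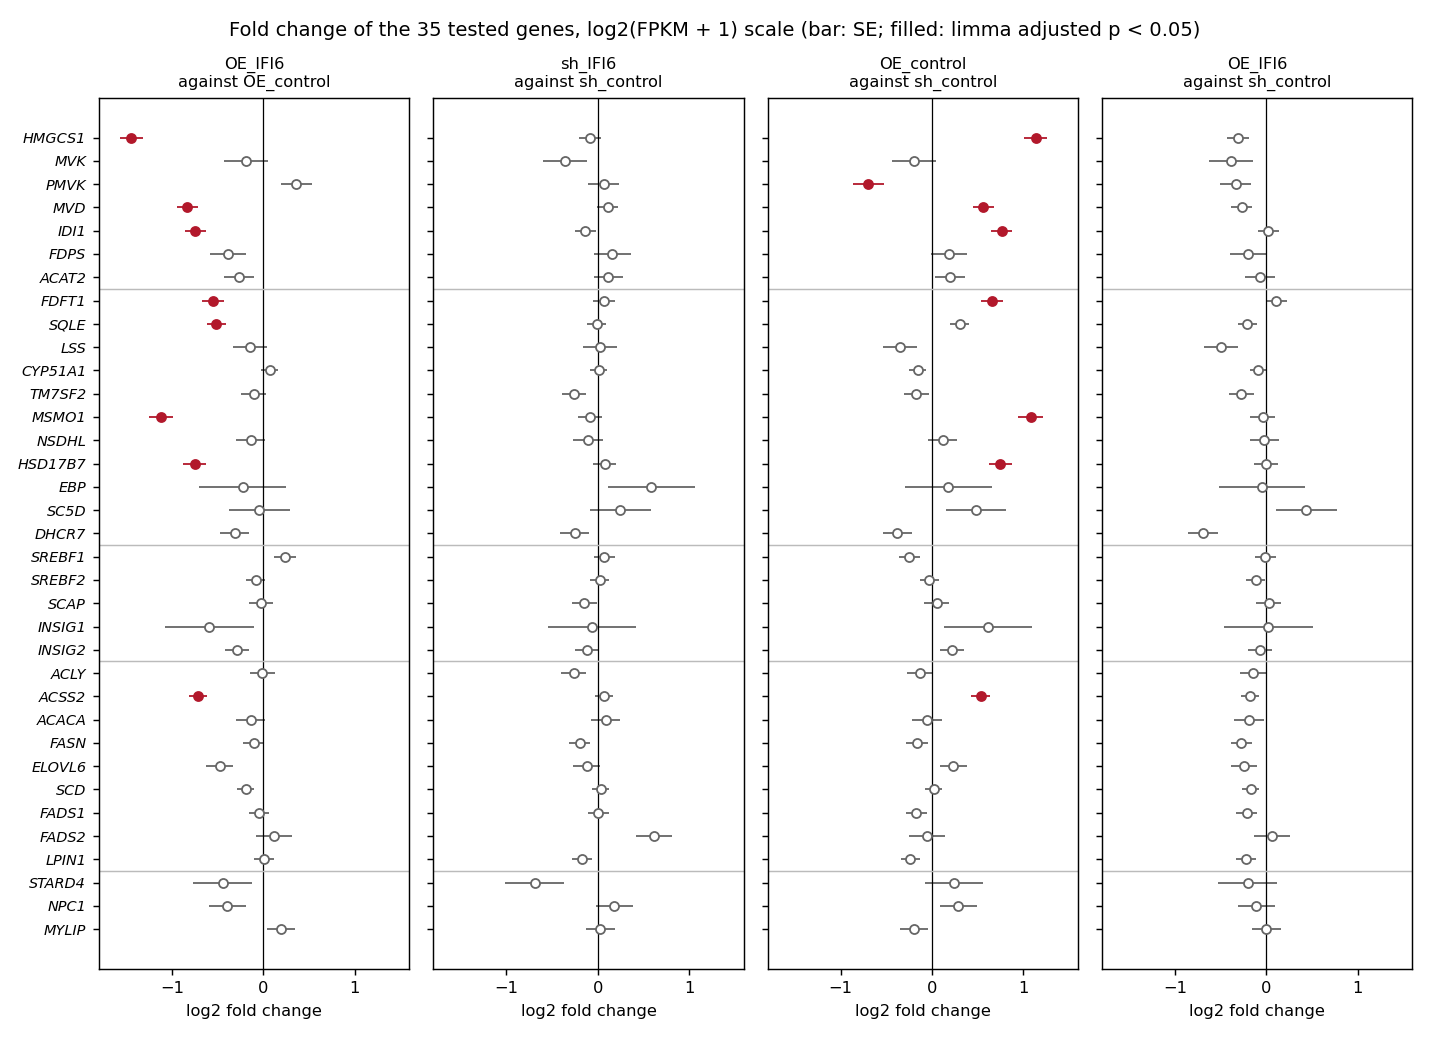
Log2 fold change on the log2(FPKM + 1) scale (point) with its SE (bar) for the 35 tested genes in 4 comparisons, in blocks by role from mevalonate enzymes at the top to sterol transport at the bottom; filled points have a limma adjusted p under 0.05. In OE_IFI6 against OE_control 8 points are filled on the left and in OE_control against sh_control 7 are filled on the right and PMVK on the left, while the other 2 panels have no filled point.

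The control vectors themselves were then compared, because OE_control stood apart. In OE_control against sh_control, 7 of the 35 genes rose and 1 fell. Among all genes tested, 2.75% rose and 4.78% fell. The genes that rose were HMGCS1 (log2 fold change 1.13, limma adjusted p = 0.00038), MSMO1 (1.08, adjusted p = 0.00085), IDI1 (0.77, adjusted p = 0.0025), HSD17B7 (0.75, adjusted p = 0.0054), FDFT1 (0.66, adjusted p = 0.0074), MVD (0.56, adjusted p = 0.013) and ACSS2 (0.53, adjusted p = 0.0089). SQLE had a log2 fold change of 0.30 and a limma adjusted p of 0.1, without overlap of the libraries. This comparison and that of OE_IFI6 with OE_control share the OE_control libraries, so the opposite signs of the same genes are not independent. The median log2 fold change of the 35 genes was 0.12, beside -0.09 for all genes. All OE_control libraries were above all sh_control libraries in 9 of the 35 genes, beside 10.1% of all genes, and below them in 5, beside 20.3%. MVD did not pass without the first sh_control library (limma adjusted p = 0.057), and FDFT1 did not in a fit of the 6 control libraries alone (limma adjusted p = 0.052).

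PMVK was the gene that fell in OE_control against sh_control. It had 1.51, 1.59 and 2.11 FPKM in OE_control libraries, against 2.87, 3.48 and 3.98 FPKM in sh_control libraries. It had 1.96, 2.91 and 2.71 FPKM in OE_IFI6 libraries and 4.42, 2.74 and 3.89 FPKM in sh_IFI6 libraries. The control groups did not overlap, and PMVK fell by 0.70 on the log2 scale (SE 0.17, limma adjusted p = 0.03), which the pseudocount of 1 understates at so low a level. The call was lost without the first or the second OE_control library (adjusted p = 0.095 and 0.068) and without the second or the third sh_control library (0.093 and 0.11), and with quantile normalization (0.06).

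With the interference vector, no synthesis gene passed the threshold. In sh_IFI6 against sh_control, 0 of the 35 genes passed the threshold, as did 0.00% of all 10925 genes by limma, while 1 of the 35 and 563 of all genes had an unadjusted p under 0.05. The median log2 fold change of the 35 genes was 0.01. The gene with the small unadjusted p was FADS2, which desaturates polyunsaturated fatty acids. It had 15.7, 18.6 and 16.8 FPKM in sh_IFI6 libraries, against 9.58, 13.0 and 10.0 FPKM in sh_control libraries. The FADS2 libraries did not overlap, with a log2 fold change of 0.61 (SE 0.196, unadjusted p = 0.0091, limma adjusted p = 0.82). FADS2 overlaps FADS1 and FEN1, which averaged 65.8 and 85.5 FPKM over the 12 libraries, so its share of the reads is uncertain. The most negative value was that of STARD4, with 7.56, 20.6 and 19.5 FPKM in sh_IFI6 libraries, against 24.4, 22.7 and 25.4 FPKM in sh_control libraries. All sh_IFI6 libraries were below all sh_control libraries in 5 of the 35 genes, beside 9.61% of all genes, and above them in 2, beside 9.46%. Summed over all 36 genes, the level was 2630 ± 152 FPKM in sh_IFI6, against 2590 ± 72.3 FPKM in sh_control (SD, n = 3 each). A p that misses the threshold does not show that the levels were equal, and IFI6 itself did not pass in this comparison (log2 fold change -0.65, limma adjusted p = 0.82).

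**Figure D3:**
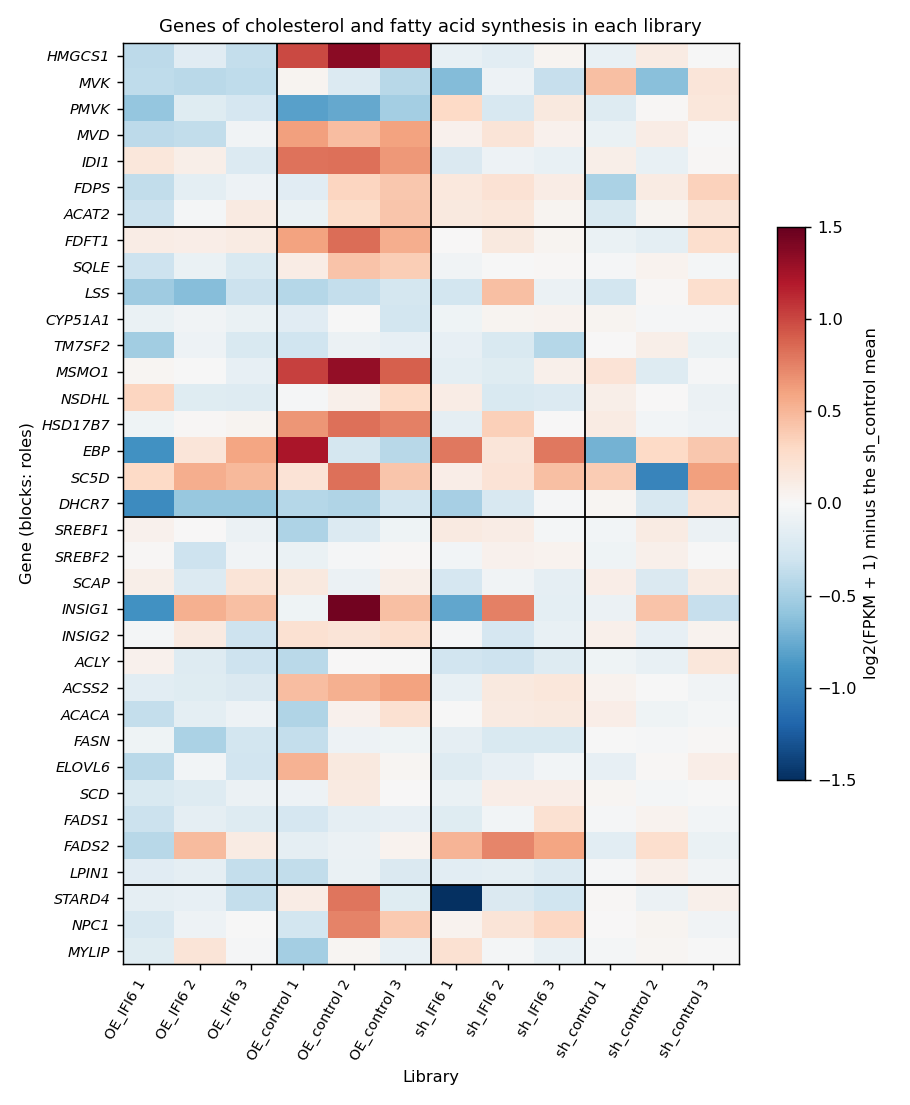
Log2(FPKM + 1) of each of the 35 tested genes in each library minus the mean of the 3 sh_control libraries (colour, from -1.5 in dark blue to 1.5 in dark red); rows are genes in blocks by role, columns are libraries in the order OE_IFI6, OE_control, sh_IFI6, sh_control. The 3 OE_control columns are red in HMGCS1, MVD, IDI1, FDFT1, MSMO1, HSD17B7 and ACSS2 and blue in PMVK, and EBP, INSIG1 and STARD4 differ among libraries of 1 group.

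The effects of overexpression and interference were compared directly, as the fold change of OE_IFI6 against OE_control minus that of sh_IFI6 against sh_control. Of the 35 genes, 5 passed the threshold, all with the overexpression effect more negative, while 1.51% of all genes passed in that direction and 1.18% in the other. They were HMGCS1 (log2 difference -1.36, limma adjusted p = 0.0021), MSMO1 (-1.04, adjusted p = 0.018), MVD (-0.94, adjusted p = 0.012), HSD17B7 (-0.83, adjusted p = 0.034) and ACSS2 (-0.79, adjusted p = 0.015). This difference also rests on the OE_control libraries, and the same 5 genes rose in OE_control against sh_control, so these results are not independent. The median difference over the 35 genes was -0.23. The count was 3 without the second sh_IFI6 library and 2 without the third, and HMGCS1 and MVD passed in every fit that left out a library.

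OE_IFI6 was set against sh_control because that comparison holds no OE_control library. None of the 35 genes passed the threshold in it, and among all genes tested 0.00% fell and 0.0183% rose. An unadjusted p under 0.05 was found for 5 of the 35 genes and for 503 of the 10925 genes tested. The 5 all had negative values and were DHCR7, LSS, HMGCS1, MVD and FASN. DHCR7 had 15.8, 20.8 and 20.9 FPKM in OE_IFI6 libraries, against 32.0, 26.4 and 36.5 FPKM in sh_control libraries, a log2 fold change of -0.69 (SE 0.16, unadjusted p = 0.001, limma adjusted p = 0.63). LSS had 21.0, 19.5 and 24.6 FPKM in OE_IFI6 libraries, against 25.4, 31.4 and 36.9 FPKM in sh_control libraries, a log2 fold change of -0.50 (SE 0.185). That value includes the non-coding transcript LSS-206, with 0.258, 0.361 and 0.137 FPKM in OE_IFI6 libraries, against 0.401, 10.9 and 11.9 FPKM in sh_control libraries. The protein-coding LSS transcripts summed to 9.7 ± 1.24 FPKM in OE_IFI6 and 11.1 ± 1.55 FPKM in sh_control (SD, n = 3 each). HMGCS1, which had the largest fall against OE_control, had a log2 fold change of -0.31 here (SE 0.121, unadjusted p = 0.026). MVD, SQLE and ACSS2 had log2 fold changes of -0.27, -0.21 and -0.18, and MSMO1, IDI1, HSD17B7 and FDFT1 had -0.04, 0.02, 0.00 and 0.11.

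The OE_IFI6 libraries were nevertheless all below all sh_control libraries in 12 of the 35 genes (34.3%), beside 6.54% of all genes, and all above in 0, beside 3.00%. The 12 were HMGCS1, SQLE, LSS, CYP51A1, DHCR7, ACSS2, ACACA, FASN, SCD, FADS1, LPIN1 and STARD4. With median-of-ratios scaling the count was 6, beside 4.04% of all genes, and with quantile normalization 9, beside 4.22%. The median log2 fold change of the 35 genes was -0.15, beside -0.04 for all genes. The vectors of these groups differ in kind, so the IFI6 level and the type of vector cannot be told apart in this comparison. Against OE_control the OE_IFI6 libraries were all lower in 12 of the 35 genes, beside 9.78% of all genes, and all higher in 0, beside 13.5%.

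Genes of heat shock and of stress of the endoplasmic reticulum were also high in OE_control, and their values stand beside the sterol genes here. The chaperone gene HSPA1A averaged 7.75 ± 1.79 FPKM in OE_IFI6 and 134 ± 49.2 FPKM in OE_control, and 11.7 ± 1.57 FPKM in sh_IFI6 and 12.1 ± 2.44 FPKM in sh_control (SD, n = 3 each). DNAJB1, a partner of HSP70 proteins, averaged 31.5 ± 1.69 and 272 ± 26.3 FPKM in OE_IFI6 and OE_control, and HSPA5, the main chaperone of the endoplasmic reticulum, 82.5 ± 7.4 and 289 ± 96.5 FPKM. These 3 belong to a list of 9, with HSPH1, HSPA8, HSPB1, DDIT3, GDF15 and ASNS, that was drawn up because OE_control was already known to stand apart. All 9 fell in OE_IFI6 against OE_control, beside 3.56% of all genes tested, and rose in OE_control against sh_control, beside 2.75%. Since the list was chosen with those results known, its count is a description only. HSPA1A and HSPA1B are near-identical copies, so the value of HSPA1A is uncertain. The part of this response in the sterol genes was not tested.

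Genes outside the set were compared with HMGCS1 over the 12 libraries by the Pearson r of log2(FPKM + 1). Among those reported here, the closest were ZNF165, a zinc finger gene (0.98), IFI44, an interferon-induced gene (0.979), CDKN1B, an inhibitor of the cell cycle (0.978), and HSPA1A (0.973). A gene with a higher value is not reported here. Within the gene set the closest were MSMO1 (0.941), ACSS2 (0.929) and SQLE (0.921). These values are descriptions, since the libraries of a group share their treatment and OE_control sets most of the variation. Over the 9 libraries without OE_control the value for HMGCS1 was 0.85 with ZNF165, 0.834 with CDKN1B, 0.731 with HSPA1A and 0.604 with IFI44. Within the gene set, the value for HMGCS1 was then -0.032 with MSMO1, 0.584 with ACSS2 and 0.933 with SQLE. It was -0.238 with IDI1 and -0.407 with FDFT1 over those 9 libraries, against 0.897 and 0.866 over all 12. Thus the genes that fell together against OE_control did not all vary together among the other libraries, where the range of HMGCS1 was small.

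HMGCS1 was also measured by transcript. The value of a gene in the deposited tables is the sum over its transcripts, and 179 transcripts of 32 of the 36 genes stood in the lncRNA table, of which 52 had a mean of at least 1 FPKM. Of the 4 HMGCS1 transcripts in the lncRNA table with such a mean, each a retained intron by GENCODE, 3 fell in OE_IFI6 against OE_control, beside 0.139% of the 6496 lncRNA-table transcripts tested. HMGCS1-205, at chr5:43293734-43294852, had 1.55, 2.05 and 1.51 FPKM in OE_IFI6 libraries, against 10.8, 13.9 and 7.49 FPKM in OE_control libraries. It had 2.52, 2.86 and 2.66 FPKM in sh_IFI6 libraries, against 2.78, 2.80 and 2.22 FPKM in sh_control libraries. The OE_control libraries were far above the rest, and the log2 fold change of OE_IFI6 against OE_control was -2.09 (SE 0.213, limma adjusted p = 0.0052). HMGCS1-205 made up 4.8% ± 0.425 of the gene's FPKM in OE_IFI6 and 10.9% ± 2.42 in OE_control, and 6.5% ± 0.747 in sh_IFI6 and 5.95% ± 0.884 in sh_control (SD, n = 3 each). It rose in OE_control against sh_control (log2 fold change 1.67, limma adjusted p = 0.033), as did 0.0616% of the lncRNA-table transcripts.

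HMGCS1-203 averaged 3.24 ± 0.566 FPKM in OE_IFI6 and 11.9 ± 1.8 FPKM in OE_control, a log2 fold change of -1.60 (limma adjusted p = 0.029). HMGCS1-207 averaged 4.43 ± 1.54 FPKM in OE_IFI6 and 14.4 ± 2.54 FPKM in OE_control, a log2 fold change of -1.53 (limma adjusted p = 0.048). HMGCS1-204 did not pass, with 3.49 ± 0.996 FPKM in OE_IFI6 and 4.3 ± 1.48 FPKM in OE_control (limma adjusted p = 0.82). In OE_IFI6 against sh_control none of these HMGCS1 transcripts passed, with log2 fold changes of -0.42 for HMGCS1-205, -0.48 for HMGCS1-203, -0.66 for HMGCS1-207 and 0.22 for HMGCS1-204 (limma adjusted p from 0.82 to 0.95). The count of 3 was 1, HMGCS1-205, without the second or the third OE_IFI6 library, without any 1 OE_control library, without the third sh_IFI6 library and without the first or the second sh_control library. HMGCS1-205 passed in all 14 alternatives for OE_IFI6 against OE_control, but lost its call for OE_control against sh_control without the first OE_control library, the third sh_IFI6 library or any 1 sh_control library (adjusted p up to 0.073). The gene AC114947.2 overlaps HMGCS1 on the opposite strand and averaged 0.767 FPKM in OE_IFI6 and 2.2 FPKM in OE_control, and without knowing whether strand was used the reads of the pair cannot be told apart.

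**Figure D4:**
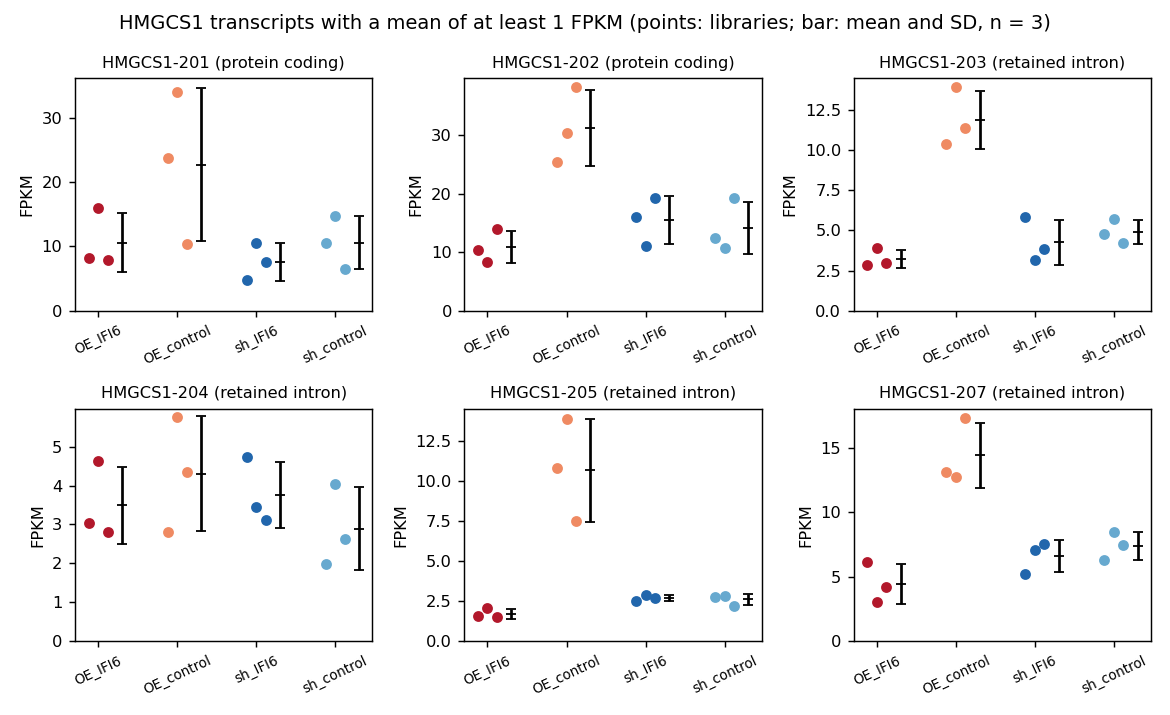
FPKM of the 6 HMGCS1 transcripts with a mean of at least 1 FPKM, 2 protein coding and 4 retained introns, in each library (points) with the group mean and SD (bar, n = 3); the vertical axes differ in range. HMGCS1-205 has 1.51 to 2.05 FPKM in OE_IFI6 and 7.49 to 13.9 FPKM in OE_control, and HMGCS1-204 overlaps among all 4 groups.

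The protein-coding transcripts gave the same direction. HMGCS1-202 had 10.4, 8.42 and 13.9 FPKM in OE_IFI6 libraries, against 25.4, 30.3 and 38.2 FPKM in OE_control libraries, a log2 fold change of -1.45 (SE 0.276, limma adjusted p = 0.037 over 17030 transcripts, of which 0.875% fell). HMGCS1-201 overlapped between the groups, with 8.16, 15.9 and 7.82 FPKM in OE_IFI6 libraries, against 23.7, 34.0 and 10.3 FPKM in OE_control libraries. All coding transcripts together held 61.1% ± 4.18 of the HMGCS1 FPKM in OE_IFI6 and 55.5% ± 1.46 in OE_control, so the fall was present in coding RNA, with 21.6 ± 2.88 FPKM in OE_IFI6 and 54.4 ± 8.58 FPKM in OE_control. Among the other genes, MVD-201 (log2 fold change -0.78, adjusted p = 0.033), MVD-217 (-0.83, adjusted p = 0.047), HSD17B7-201 (-0.77, adjusted p = 0.034) and SQLE-201 (-0.51, adjusted p = 0.038) fell by limma. HSD17B7-201 also rose in OE_control against sh_control (0.80, limma adjusted p = 0.026), beside 0.734% of the coding transcripts. ACSS2-207, a retained intron, fell in the lncRNA table (-1.20, limma adjusted p = 0.029). The split of a gene among its transcripts was uneven between libraries: FDFT1-203 was listed at 45.1, 0 and 15.8 FPKM in the 3 OE_IFI6 libraries, while the FDFT1 gene stood at 157 to 159 FPKM in them.

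Other genes around the pathway, which process SREBPs, use isoprenoids or move and store lipids, were also counted. Of 69 such genes, 64 reached a mean of 1 FPKM. In OE_IFI6 against OE_control 6 of the 64 rose and 1 fell, with a median log2 fold change of 0.09, beside 4.10% of all genes tested that rose and 3.56% that fell. In OE_control against sh_control, which shares the OE_control libraries, 1 of the 64 rose and 7 fell, beside 2.75% and 4.78% of all genes. In OE_IFI6 against sh_control, which leaves them out, 0 of the 64 passed by limma and 1 had an unadjusted p under 0.05. STARD3NL, which tethers late endosomes to the endoplasmic reticulum, had 25.8, 32.3 and 31.3 FPKM in OE_IFI6 libraries, against 14.3, 15.6 and 15.2 FPKM in OE_control libraries (log2 fold change 0.94, limma adjusted p = 0.0015). ACAT1, the mitochondrial acetoacetyl-CoA thiolase, averaged 54.9 ± 10.2 FPKM in OE_IFI6 and 30.6 ± 4.99 FPKM in OE_control (0.82, adjusted p = 0.0089). LBR, a sterol reductase of the nuclear envelope, averaged 34.9 ± 5.28 FPKM in OE_IFI6 and 21.2 ± 3.45 FPKM in OE_control (0.69, adjusted p = 0.02). ARV1, NUS1 and PDSS1, which serve sterol transport, dolichol synthesis and the side chain of ubiquinone, also rose, by 0.60, 0.59 and 0.43. VLDLR, a lipoprotein receptor, fell, with 16.2 ± 1.97 FPKM in OE_IFI6 and 28.1 ± 3.15 FPKM in OE_control (-0.76, adjusted p = 0.018). The number that rose was 3 without the second OE_IFI6 library, without the first OE_control library or without the third, and 1 in a fit of the 6 overexpression libraries. In sh_IFI6 against sh_control 0 of the 64 passed by limma, and 5 had an unadjusted p under 0.05.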

How the data were processed

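RNA was sequenced from TE-1 cells in 12 libraries, 3 in each of 4 groups taken from the sample titles. The values used are FPKM per gene and per transcript, computed by the authors and deposited as tables of protein-coding genes, all annotated genes, and protein-coding and lncRNA transcripts. The submitters' processing notes list Cuffdiff, edgeR, HISAT2 and StringTie, without versions or roles. For the genome build, the annotation and the use of strand, the sources used here give nothing. Gene coordinates overlapped those of GENCODE release 29 (GRCh38) for 19668 of the 19702 genes whose identifiers matched, and for all 36 genes described. Of low values in single-transcript genes, 26.1% to 29.0% were within 1% of a multiple of the smallest step, so read numbers could not be recovered and count models were not used. Precision cannot be stated per value beyond the spread between libraries.

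Genes averaging 1 FPKM or more were tested on log2(FPKM + 1), which understates changes near 1 FPKM. Limma 3.58.1 (R 4.3.3, data.table, version 1.17.8) fitted group means to all 12 libraries (8 residual degrees of freedom, trended prior). Tests were two-sided, with Benjamini-Hochberg adjustment over all features of a table, and "rose" and "fell" mean an adjusted p under 0.05. Transcript tables were fitted in the same way. Motifs were counted in RefSeq promoter windows whose start lay nearest the deposited 5′ end of the gene, 1 window for each of 32 genes. Tables and figures were made with Python 3.11.15, pandas 2.3.3, scipy 1.17.1 and matplotlib 3.10.9. The fit was tested on simulated data.

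The genes, lists and tests were chosen with earlier results of these data known. Every gene past the threshold in any comparison was given by library, and the other genes of the set by means or ranges. Genes outside the set were named if among the 8 of smallest p that passed in OE_IFI6 against OE_control, or among the 5 closest to HMGCS1. A gene that this rule names is not reported here. Alternatives were no filter, a minimum of 5 FPKM, a pseudocount of 0.1, quantile normalization, median-of-ratios scaling, limma with a robust or without a trended prior, a replicate block, a fit of 6 libraries, the table of all annotated genes, and each library left out. Counts of genes whose libraries do not overlap were recomputed under other scalings as an alternative chosen after seeing the data.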

Additional observations from a re-analysis of the deposited data

Results flagged for a closer look

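In 5 genes the effect of overexpression differed from that of interference by a test of the difference itself (limma, adjusted over 10925 genes). The difference in log2 fold change was -1.36 in HMGCS1, -1.04 in MSMO1, -0.94 in MVD, -0.83 in HSD17B7 and -0.79 in ACSS2. In all 5, the 3 OE_IFI6 libraries were below the 3 OE_control libraries, while the libraries of sh_IFI6 and sh_control overlapped. The same 5 genes rose in OE_control against sh_control, and none passed in OE_IFI6 against sh_control, with log2 fold changes of -0.31 in HMGCS1, -0.04 in MSMO1, -0.27 in MVD, 0.00 in HSD17B7 and -0.18 in ACSS2. HSD17B7 lost its call in 9 of the 12 fits that left out a library, all but those without the third OE_IFI6, the first OE_control or the first sh_IFI6 library (adjusted p up to 0.089). ACSS2 lost it without the second or the third sh_IFI6 library (0.051 each), and MSMO1 without the third (0.052).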

How the results depend on the processing

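Of 957 values recomputed under alternatives for 49 results, 872 were classed as unchanged and 0 as reversed. For a fold change, unchanged meant the same sign and an adjusted p still under 0.05 by limma. For a count it meant a value within a set ratio of the main count, and counts could not be classed as reversed. For a median it meant a shift smaller than 0.0613, the pooled SD between libraries, even where the sign changed. The falls of HMGCS1, MSMO1, MVD, ACSS2 and HSD17B7 in OE_IFI6 against OE_control passed in all 22 alternatives. In the fit of the 6 libraries compared, the genes that fell in OE_IFI6 against OE_control numbered 5 in place of 8, and of the other pathway genes 0 fell and 1 rose in place of 1 and 6. That fit could not be made for the difference between the effects. In OE_control against sh_control, the genes that fell numbered 0 with a minimum of 5 FPKM, where PMVK was not tested, and 0 with quantile normalization, and the median was 0.18 with that minimum, 0.20 with median-of-ratios scaling and 0.0425 with quantile normalization, against 0.12. Scaling moved the median of all genes there to -0.01, against -0.09. MSMO1 lost its call for the difference between the effects with quantile normalization (adjusted p = 0.09). Genes with all OE_IFI6 libraries below all sh_control libraries numbered 6 with median-of-ratios scaling, chosen after seeing the data, in place of 12. Of the HMGCS1 transcripts in the lncRNA table, 1 passed for the difference between the effects with a pseudocount of 0.1, in place of 0. Only 6 of 18 same-numbered pairs correlated above 0.1 (range -0.146 to 0.254), so the numbers were not taken to pair the libraries, though 8 of 12 libraries correlated best with their own number, a hint from the data. With the replicate block, 1 of these transcripts fell in OE_IFI6 against OE_control in place of 3 (HMGCS1-203 and HMGCS1-207 at adjusted p = 0.12), and no gene that passed lost its call. Leaving out 1 library gave medians of 0.0304 to 0.12 for OE_control against sh_control and -0.29 to -0.15 for the difference, 0 to 1 genes that fell in OE_control against sh_control, 2 to 7 in the difference, 3 to 8 other pathway genes that rose, and 1 to 3 HMGCS1 transcripts that fell in OE_IFI6 against OE_control and 0 to 1 in the difference. Except where a gene or library was left out, the cause was not tested. Values near 1 FPKM rest on few fragments and carry the largest counting error.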
